A study of Mus musculus with 9 samples.

Results

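Cytosolic ribosomal protein genes were taken as all genes whose annotated symbol begins with Rpl or Rps followed by a digit, together with Rplp0, Rplp1, Rplp2 and Rpsa, leaving out the kinases whose symbols start with Rps6k. On the arrays, 51 of 18193 measured genes met this rule, each read from 1 probe set, the one with the highest mean over 9 arrays. They comprised 22 of 46 proteins of the large subunit, 21 of 31 of the small subunit, 6 paralogs (Rpl3l, Rpl7l1, Rpl22l1, Rpl39l, Rps27l and Rps4l) and 2 symbols that match the rule without naming a subunit protein. The latter were Rps19bp1, a binding partner of Rps19 that also regulates the deacetylase Sirt1, and the pseudogene Rps15a-ps6. Rps4l is also annotated as a transcribed pseudogene.

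The arrays measured heart RNA from C57BL/6 mice at 2 months of age, with 3 arrays per group, each a biological replicate. Mutant right atria came from Myh6-cre; COUP-TFIIflox/flox mice, in which a cardiomyocyte promoter drives Cre and the floxed gene Nr2f2, which encodes the nuclear receptor COUP-TFII, is deleted in heart muscle cells only. Control right atria and control ventricles came from COUP-TFIIflox/flox mice without Cre, so an effect of Cre itself and one of the deletion cannot be told apart. The floxed alleles were shared by all 3 groups.

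Ribosomal proteins are assembled with ribosomal RNA into a large subunit, which forms peptide bonds, and a small subunit, which reads the mRNA. Most of their mRNAs begin with a run of pyrimidines, the terminal oligopyrimidine motif, through which mTOR and Larp1 control their translation. Striated muscle also makes Rpl3l, which takes the place of Rpl3 near the catalytic centre of the large subunit.

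The promoter of Rpl3l is shown because this paralog had the largest difference between the tissues, and the start sites of 6 other genes because they had the largest falls in the ventricle that passed the test. All are RefSeq sequences of build GRCm38.p6, 5′ to 3′ on the strand of the gene, and 44 of the 51 genes have such a window. For Rpl3l the stretch runs from 250 bases before the annotated start to 30 bases after it (chr17:24727576-24727855, plus strand), and the capitals mark the match to AGGTCA, the core of the motif that nuclear receptors bind, here on the other strand.
Rpl3l: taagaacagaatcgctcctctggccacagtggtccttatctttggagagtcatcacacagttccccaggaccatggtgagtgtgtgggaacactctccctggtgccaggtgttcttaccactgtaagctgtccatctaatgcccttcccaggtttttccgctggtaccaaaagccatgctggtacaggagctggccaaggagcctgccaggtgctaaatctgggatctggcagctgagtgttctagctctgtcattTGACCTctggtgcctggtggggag
The motif AGGTCA, searched on both strands in windows of 250 bases before to 50 after a start, was present in 4 of the 44 genes (9.1%) and in 18.1% of all 27025 genes with a window. These motifs were chosen after the sequences were seen, and a match is a description of the letters only.

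The next lines give 30 bases each, from 20 before to 10 after the annotated start, with the longest run of pyrimidines within them in capitals. Where runs tie, as for Rps4x and Rpl3l, the first is marked. A run may go on past the printed bases, as does that of Rpl22l1, which has 10 bases. The positions are chr9:44407694-44407723 (plus strand) for Rps25, chr9:120571497-120571526 (plus strand) for Rpl14, chr2:32961692-32961721 (plus strand) for Rpl12, chr1:72711240-72711269 (plus strand) for Rpl37a, chrX:102189382-102189411 (minus strand) for Rps4x, chr3:28805488-28805517 (plus strand) for Rpl22l1 and chr17:24727806-24727835 (plus strand) for Rpl3l.
Rps25: TCCTTTTTTTCCgacatcttagcgaggctg
Rpl14: cggcagggcgggCCCTCTCTCTTCTCgctg
Rpl12: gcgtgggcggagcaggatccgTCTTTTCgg
Rpl37a: gtcaCTTCCgctcgccggtctaaaaccgcg
Rps4x: aaagTCTgaggctgggcggagcaacccagg
Rpl22l1: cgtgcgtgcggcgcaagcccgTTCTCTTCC
Rpl3l: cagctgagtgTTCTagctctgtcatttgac
A run of at least 8 pyrimidines within 20 bases of the start on either side was found in 20 of the 44 genes (45.5%) and in 18.4% of all genes with a window. The motif CCGGAAG, the letters bound by ETS factors such as GABP, stood in 21 of the 44 (47.7%) against 9.9% of all genes, and CACGTG, the E-box bound by Myc, in 4 (9.1%) against 8.1%; none of these motifs overlaps AGGTCA in its letters. Among the subunit proteins with a window, 12 of 18 with the pyrimidine run and 11 of 20 without it were lower in the ventricle than in the control atrium, with median log2 differences of -0.28 and -0.23.

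The 9 arrays had median intensities between 80.9 and 83.4. Nr2f2 averaged 6.75 ± 0.12 (SD, n = 3) in mutant and 7.49 ± 0.19 in control atria on the log2 scale (limma adjusted p = 0.0109). Atrial muscle genes were present in the atria and all 9 of the list were lower in the ventricle than in the control atrium. In the mutant atria 5 of the 9 were also lower than in control atria, with summed intensities of 69980 to 97720 against 136700 to 139300. The summed intensity of 7 genes of all cardiomyocytes lay between 151900 and 163100 in every array. Of 20 hepatocyte markers 18 were measured, and 17 of these were higher in control atria than in both other groups, Apob being the exception. The summed intensity of the 18 was 4359 to 20870 in control atria, against 747.6 to 850.5 in the ventricles and 1072 to 1180 in the mutants. Alb, which encodes serum albumin, had log2 values of 12.25, 10.81 and 8.73 in the control atria. Every comparison with the control atria below holds this difference, and apart from fits with the mean of these genes as a covariate, its part in the ribosomal protein results was not tested. The log2 difference between 3′ and 5′ probe sets of Gapdh, a sign of RNA quality, lay between 0.15 and 0.23 in the ventricles, between 0.21 and 0.30 in the mutants and between 0.34 and 0.36 in the control atria, and its part was not tested either.

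All differences below are log2 ratios ± SE from a limma fit of all 9 arrays, with 3 arrays per group and p-values adjusted by Benjamini-Hochberg over the 18193 genes. A gene was called when its adjusted p was under 0.05. The brightness of a probe set depends on its probes, so levels are compared between groups for 1 gene and not between genes. Of the 51 probe sets, 35 had a mean log2 intensity of at least 12 and 16 a lower one. For some genes the probe set that names 1 gene only is a dim one. It lay at the 3.09 percentile of all genes for Rps16, 41.0 for Rps27, 43.2 for Rpl14, 46.3 for Rpl12 and 53.4 for Rps25. Rps16 is named here after its values were seen.

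Rpl3l had the largest difference of the 51 genes in each comparison. Its log2 intensity was 8.63, 8.74 and 8.76 in the control atria, 9.93, 9.44 and 9.43 in the mutant atria and 12.45, 12.50 and 12.43 in the ventricles. No array of 1 group overlapped with an array of another, and the ventricle arrays lay within 0.1 of each other. The ventricle exceeded the control atrium by 3.75 ± 0.12, or 13.5-fold (limma adjusted p = 6.49e-08). The mutant atrium exceeded the control atrium by 0.89 ± 0.12, or 1.85-fold (adjusted p = 0.0014), and fell short of the ventricle by a log2 difference of -2.86 ± 0.12 (adjusted p = 7.04e-07).

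In the mutant atria Rpl3l was highest in the first array, and without that array the difference from control atria was 0.73, the lowest of the values obtained by leaving out 1 array, of which the highest was 0.98; the call held each time, with adjusted p up to 0.00796. With the mean of the hepatocyte genes as a covariate, which nearly follows the groups, the difference was 0.73 but no longer passed the test (adjusted p = 0.448). Genes of ventricular muscle also differed in the same samples. Of 5, 4 were higher in mutant than in control atria, beside 7.76% of all genes, and Hey2 was lower, by -0.57 ± 0.12 (limma adjusted p = 0.013). The summed intensity of the 5 was 54780 to 62690 against 5414 to 7169, with 64600 to 67070 in ventricles. Irx4, 1 of the 4, averaged 5.94 in mutant atria against 8.96 in ventricles. In bulk tissue, fewer cells of a type and less RNA per cell cannot be told apart. Rpl3, the general counterpart of Rpl3l, is named by 2 probe sets that also name other genes and is not analysed here, so the balance of both could not be measured.

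**Figure D1:**
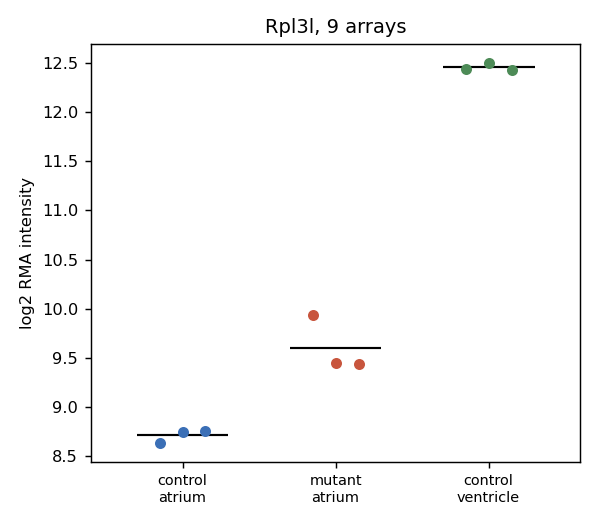
Log2 RMA intensity of Rpl3l on each of the 9 arrays (points) with the mean of each group (lines). The control atria lie between 8.63 and 8.76, the mutant atria between 9.43 and 9.93 and the ventricles between 12.43 and 12.50.

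Apart from Rpl3l, the ventricle held lower levels of many ribosomal protein transcripts than the control atrium. Of the 51 genes, 30 were lower (58.8%) and 1 was higher, Rpl3l, beside 23.6% and 29.2% of all genes called lower and higher in this comparison. The falls were small, between 1.15-fold and 1.73-fold. The median difference of the 51 genes was -0.24, with 41 below zero, against 0.07 over all genes. In the small subunit 16 of 21 were lower (median -0.28) and in the large subunit 12 of 22 (median -0.24).

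The count depended on how the arrays were scaled. Between ventricle and control atrium the array medians of the genes differed by -0.136, and relative to that shift the median of the 51 genes was -0.10, with 36 below it. The median difference over all genes had the opposite sign, at 0.07, so the shift is not a uniform offset of all genes. Centring each array on its median left 13 lower and 5 higher, in place of 30 and 1, beside 16.9% and 48.4% of all genes. Quantile normalisation gave 35 lower and 3 higher, beside 20.2% and 26.9% of all genes. With the hepatocyte covariate 0 of the 51 were called lower, and 3.81% of all genes. In that fit the median SE was 0.185 in place of 0.0726, and 28 of the 30 genes kept a difference below zero, with a median of -0.14 over the 51. All 13 mesothelial markers were lower in the ventricle, with summed intensities of 1641 to 2130 against 11640 to 13890 in control atria, and 6 of 16 macrophage markers were, with 10110 to 15390 against 18720 to 20320. Endothelial markers were lower in the ventricle for 7 of 12, with summed intensities of 8498 to 9350 against 20850 to 22910, and fibroblast markers for 12 of 14, with 32580 to 36280 against 58200 to 63280; the part of these cells in the falls was not tested.

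Of the probe sets with a mean of at least 12, 25 of 35 were lower, beside 31.5% of all genes that bright, and of the dimmer ones 5 of 16, beside 23.4%; the difference between bright and dim ones was not tested. When only probe sets without a suffix were used, the suffix marking probes shared by several transcripts, 10 of 28 were lower, beside 22.4% of all genes. When probe sets naming several genes were added, 52 of the 69 subunit proteins then covered were lower, with a median of -0.26, beside 23.7% of all genes.

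**Figure D2:**
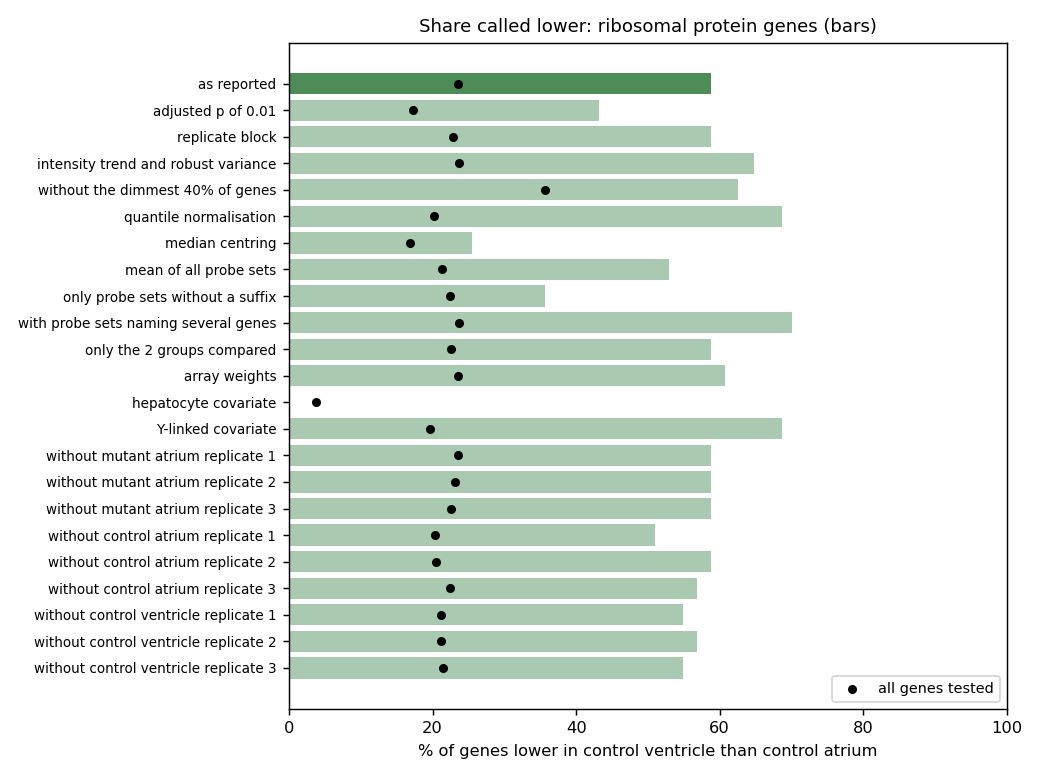
Share of ribosomal protein genes called lower in the control ventricle than in the control atrium under each setting (bars, percent of the genes of the set measured under it) with the share of all genes tested (points). The reported share is 58.8% against 23.6%, median centring gives 13 genes and the hepatocyte covariate 0.

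In the small subunit, Rps25, which some viral and cellular mRNAs need for initiation without a cap, showed the largest fall. Its log2 intensity was 8.06, 7.89 and 7.99 in control atria, 7.79, 7.85 and 7.80 in mutant atria and 7.30, 7.10 and 7.17 in ventricles. All ventricle arrays lay below all atrial arrays, and the mutant atria lay just below the control atria. The ventricle differed from the control atrium by -0.79 ± 0.07 (limma adjusted p = 2.34e-05), and the mutant from the control atrium by -0.17 ± 0.07, which did not pass the test (adjusted p = 0.148). With the hepatocyte covariate the ventricle difference was -0.71 (adjusted p = 0.0676).

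The other named falls also lost their calls in that fit, at adjusted p between 0.275 and 0.975. Their differences were then -0.51 for Rpl14, -0.42 for Rpl37a and Rpl12, -0.31 for Rpl13a and Rpsa, and -0.30 for Rpl7 and Rps28. Those of Rps4x and Rpl22l1 were -0.25, that of Rps3 was -0.23, and those of Rps26, Rps9 and Rps27 were -0.11, -0.09 and 0.02. The values of these genes below come from the fit without the covariate.

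Rps28, a protein of the mRNA exit channel, had values of 14.12, 14.05 and 14.04 in control atria, 13.99, 13.98 and 13.93 in mutant atria and 13.66, 13.70 and 13.69 in ventricles. The 3 groups did not overlap, with the ventricles lowest. It was lower in the ventricle by a log2 difference of -0.39 ± 0.06 (adjusted p = 0.000359), and its 3 probe sets were all lower there, between -0.23 and -0.39. Rps4x, a small subunit protein encoded on the X chromosome, had 14.12, 13.95 and 13.99 in control atria, 14.01, 13.93 and 13.88 in mutant atria and 13.62, 13.63 and 13.61 in ventricles.

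For Rps4x both atria overlapped and the ventricles lay below them, a difference of -0.39 ± 0.07 from the control atrium (adjusted p = 0.000915). A second, dim probe set of Rps4x went the other way, at 0.62 ± 0.10, and the mean of both probe sets gave 0.11 (adjusted p = 0.119), so the direction for this gene rests on the probe set used. Rps24 also had probe sets called in both directions in this comparison, and no other of the 24 genes with several probe sets did. Rps24 is named here after its values were seen.

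Rps26, a neighbour of Rps28 at the exit channel, was lower in the ventricle by a log2 difference of -0.35 ± 0.08 and Rps9, which lies by the mRNA entry channel, by one of -0.32 ± 0.07. Rpsa, also known as the laminin receptor, differed by -0.32 ± 0.08, with atrial values of 13.58, 13.35 and 13.51 in controls against 13.15, 13.18 and 13.14 in ventricles. These 3 genes passed the test at adjusted p between 0.0045 and 0.0062, and none of their ventricle arrays reached an array of the control atria. Median centring ended the calls of Rps9 (adjusted p = 0.0511) and Rpsa (adjusted p = 0.0607), as did probe sets without a suffix for Rps9 and the mean of both probe sets for Rpsa. Rps2, which lies by the mRNA entry channel, was at 13.77, 13.78 and 13.80 in control atria and at 13.88, 13.85 and 13.88 in ventricles. This difference of 0.09 ± 0.05 did not pass the test (adjusted p = 0.174), although the arrays did not overlap; Rps2 is named here after its values were seen.

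In the large subunit, the genes of the base and tip of the stalk, which recruits the factors of translation, did not all pass the test. Rpl12, at the base of the stalk, had 7.42, 7.32 and 7.32 in control atria, 7.14, 7.03 and 7.22 in mutant atria and 7.01, 6.58 and 6.75 in ventricles. Its ventricle level was lower by a log2 difference of -0.57 ± 0.11 (adjusted p = 0.0017). Rplp0, the scaffold of the stalk, had 13.52, 13.42 and 13.46 in control atria and 13.36, 13.44 and 13.34 in ventricles, overlapping ranges with a difference of -0.09 ± 0.06 (adjusted p = 0.252). For Rplp2, which binds Rplp0, the difference was -0.15 ± 0.07 (adjusted p = 0.0755), and the third member of the stalk, Rplp1, stands only on probe sets that name several genes. Whether Rpl12 differs from the other two in its change was not tested.

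Rpl14 had values of 7.25, 7.12 and 7.12 in control atria, 6.96, 6.83 and 6.71 in mutant atria and 6.32, 6.75 and 6.56 in ventricles. Control atria lay above all other arrays, while mutant atria and ventricles overlapped. The ventricle difference of -0.62 ± 0.11 passed the test (adjusted p = 0.00135) and the mutant difference of -0.33 ± 0.11 did not (adjusted p = 0.0717). Rpl37a differed by -0.44 ± 0.08 between ventricle and control atrium (adjusted p = 0.00184), from 14.00, 13.83 and 13.94 to 13.48, 13.49 and 13.47. Rpl13a, which can leave the ribosome to silence inflammatory mRNAs, differed by -0.34 ± 0.07 (adjusted p = 0.00298) and Rpl7 by -0.37 ± 0.06 (adjusted p = 0.000843). Rpl39, at the exit of the peptide tunnel, had a difference of 0.00 ± 0.10.

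**Figure D3:**
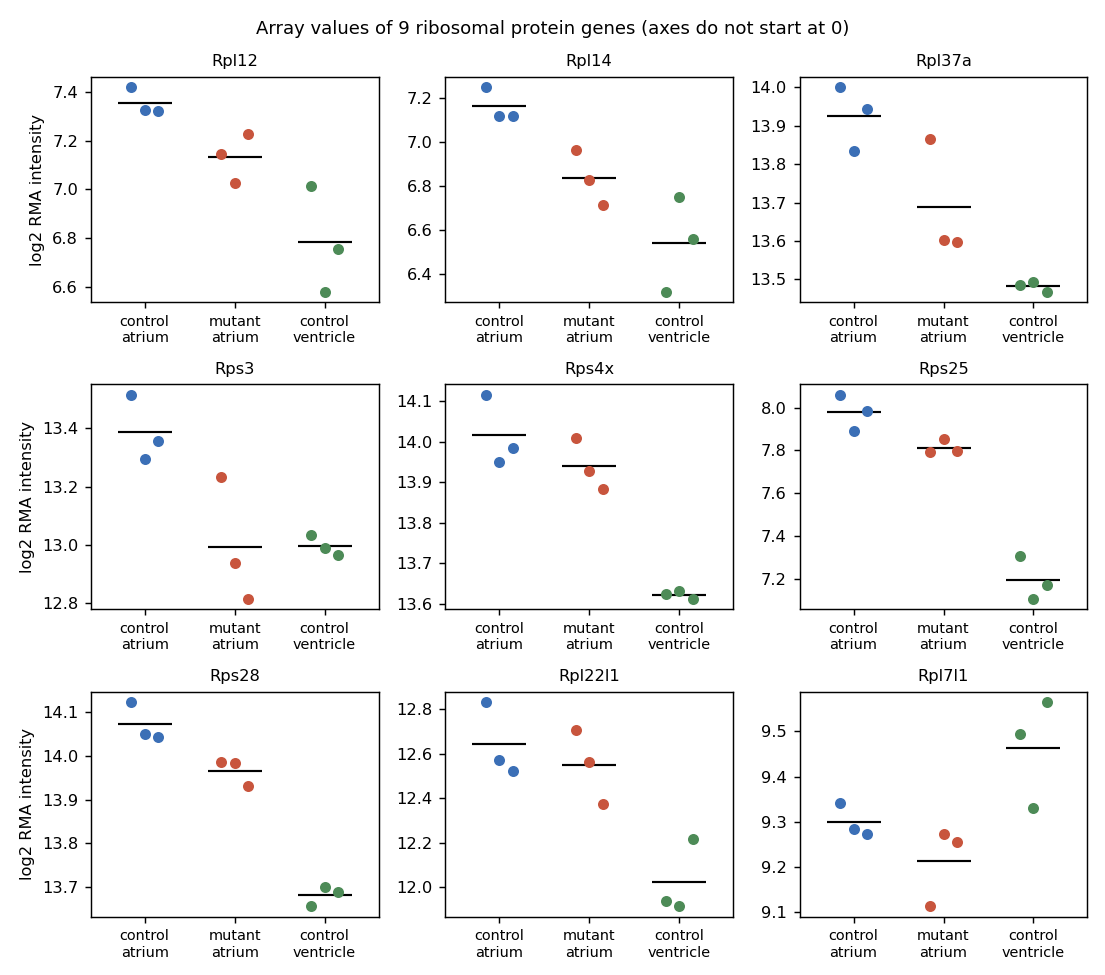
Log2 RMA intensity of 9 ribosomal protein genes on each of the 9 arrays (points) with group means (lines); each panel has its own axis, which does not start at 0. The ventricles lie below the control atria in 8 panels, whose genes were picked among called falls without overlap, and Rpl7l1 is the exception.

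The paralogs other than Rpl3l did not follow a single pattern. Rpl22l1, the paralog of the RNA-binding protein Rpl22, had log2 values of 12.83, 12.57 and 12.52 in control atria, 12.71, 12.56 and 12.38 in mutant atria and 11.94, 11.91 and 12.21 in ventricles. Both atria overlapped and the ventricles lay below, with a difference of -0.62 ± 0.12 from control atria (limma adjusted p = 0.00217). For Rpl22 itself that difference was -0.14 ± 0.07 (adjusted p = 0.119). It was called lower with quantile normalisation (-0.25, adjusted p = 0.0215) and with the Y-linked covariate (-0.25, adjusted p = 0.0359). The other probe sets of Rpl22 gave -0.28 ± 0.09 and 0.10 ± 0.07, so its direction rests on the probe set used. On the probe sets with the highest mean, the difference within an array between paralog and parent was lower in ventricles than in control atria by -0.48 ± 0.13.

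Rpl7l1, the paralog of Rpl7, had 9.34, 9.28 and 9.27 in control atria, 9.11, 9.27 and 9.25 in mutant atria and 9.49, 9.33 and 9.57 in ventricles. It was lower in the mutant atrium than in the ventricle, with a difference of -0.25 ± 0.08 (adjusted p = 0.0327), and its difference of 0.16 ± 0.08 between ventricle and control atrium did not pass the test (adjusted p = 0.0993). The former call ended without mutant array 1 or 3 or ventricle array 1 or 3, with the replicate block, in the fit of only 2 groups and with the Y-linked covariate, at adjusted p between 0.0564 and 0.106. Between ventricle and control atrium, averaged probe sets (0.32, adjusted p = 0.00127) and median centring (0.30, adjusted p = 0.00704) gave a call. So did quantile normalisation (0.27, adjusted p = 0.0185) and leaving out ventricle array 2 (0.23, adjusted p = 0.034). The remaining settings did not, such as the hepatocyte covariate (0.26, adjusted p = 0.543). The other 2 probe sets of Rpl7l1 were higher in the ventricle than in the control atrium, by 0.53 ± 0.06 and 0.26 ± 0.07. They were called lower in the mutant atrium than in the ventricle, at -0.51 ± 0.06 and -0.35 ± 0.07. Against Rpl7, the difference within an array was higher in ventricles by 0.53 ± 0.10.

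Rps27l, a p53 target that is a paralog of Rps27, had a difference between ventricle and control atrium of -0.04 ± 0.09, and Rps27 one of -0.23 ± 0.08 (adjusted p = 0.028). The call of Rps27 ended under median centring and quantile normalisation and without control atrium array 1, ventricle array 2 or ventricle array 3, at adjusted p between 0.0581 and 0.263, and with the hepatocyte covariate the difference was 0.02 (adjusted p = 0.975). Rpl39l and Rps4l did not pass the test in any comparison, and the probe set of Rpl39l was dim, between 4.59 and 4.95 on all arrays. Over the 4 pairs with both genes measured and 3 comparisons, the 12 exact permutation tests, 2-sided, gave p = 0.1 at the lowest, the smallest that 3 against 3 arrays allow, and 0.171 after adjustment. This test could therefore give no p below 0.05 for a pair, and the differences of the pairs are values with their SE only.

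Deletion of Nr2f2 in the cardiomyocytes was accompanied by few called changes among these genes. Between mutant and control atria, 1 of the 51 genes was higher, Rpl3l, and 1 was lower, Rps3, beside 7.76% and 9.79% of all genes called higher and lower. The median difference was -0.08, with 44 of the 51 below zero, against 0.03 over all genes. The largest positive difference after Rpl3l was that of Rps4l, at 0.44 ± 0.26, which did not pass the test (adjusted p = 0.269). Under quantile normalisation 3 were lower, with array weights 6 and with an intensity trend 5, so the count of falls depended on the fit. In these fits 7.98%, 13.5% and 10.3% of all genes were lower. Rpl37a was lower in each of them, at limma adjusted p between 0.0354 and 0.049. In the reported fit its difference was -0.24 ± 0.08 (adjusted p = 0.0798), and its arrays overlapped between the atria. It was also called with the mean of its probe sets (-0.27, adjusted p = 0.024), with the Y-linked covariate and without mutant array 1. The hepatocyte covariate gave no call. Its other probe sets gave -0.35 ± 0.07 and -0.22 ± 0.09. The median SE of a difference over the 51 genes was 0.0726.

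Rps3, which lines the mRNA entry channel and also acts in DNA repair, had log2 values of 13.51, 13.29 and 13.36 in control atria, 13.23, 12.94 and 12.81 in mutant atria and 13.03, 12.99 and 12.96 in ventricles. The mutant arrays lay below all control atria, by -0.39 ± 0.11 (adjusted p = 0.0314). The call was lost when mutant array 2 or 3 or any of the control atria was left out, with adjusted p between 0.0512 and 0.105, and when the mean of its 3 probe sets was used (-0.07, adjusted p = 0.42). The other 2 probe sets of Rps3 gave 0.16 ± 0.12 and 0.01 ± 0.09, neither of which passed the test. Rps6, the substrate of the S6 kinases, came next below the threshold, with a difference of -0.65 ± 0.20 (adjusted p = 0.0508). Its values were 8.68, 9.22 and 8.77 in control against 8.48, 8.13 and 8.12 in mutant atria, and it is named after they were seen. A second, dim probe set of Rps6 went the other way, at 0.10 ± 0.08, and did not pass the test.

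Macrophage markers were higher in the mutant atria for 8 of 16, with summed intensities of 22570 to 31910 against 18720 to 20320, and all 13 mesothelial markers were lower, with 4822 to 5542 against 11640 to 13890. The part of these cells in the ribosomal protein values was not tested. With the hepatocyte covariate 0 of the 51 genes were called in either direction, and over all genes 0.313% were higher and 0.192% lower. In that fit the median difference was 0.01, with 23 of the 51 below zero, and the median SE was 0.178.

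Of the 51 genes, 17 were higher in the mutant atrium than in the ventricle (33.3%) and 2 were lower, Rpl3l and Rpl7l1, beside 16% and 16.7% of all genes. The median was 0.16 against -0.05 over all genes, and relative to the shift of 0.101 in the array medians it was 0.05, with 31 of the 51 above that shift. Here too the shift and the median over all genes had opposite signs. Centring on the median left 5 higher and 4 lower, beside 12.3% and 32.3% of all genes, so the share of rises was then no larger than that of all genes. Markers of other cells also differed, with 13 of 13 mesothelial, 12 of 16 macrophage and 10 of 14 fibroblast genes higher in the mutant atrium; the fibroblast sum was 65010 to 67740 against 32580 to 36280, and their part was not tested. Both this comparison and that of the ventricle with the control atrium use the same ventricle arrays, so their counts are not independent.

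Rps25 was higher in the mutant atrium than in the ventricle by 0.62 ± 0.07 (limma adjusted p = 0.000191) and Rpl22l1 by 0.53 ± 0.12 (adjusted p = 0.00822). Rpl12 was higher by 0.35 ± 0.11 (adjusted p = 0.0309), Rps4x by 0.32 ± 0.07 (adjusted p = 0.005), Rps9 by 0.30 ± 0.07 (adjusted p = 0.0106) and Rps28 by 0.28 ± 0.06 (adjusted p = 0.00373). The remaining rises reached at most 0.25. The call of Rpl12 ended without mutant array 1 or 3 and without ventricle array 2 or 3. It also ended under median centring, quantile normalisation and the Y-linked covariate, each with all 9 arrays, and in the fit of only 2 groups. In these fits its adjusted p lay between 0.0603 and 0.104. The dim second probe set of Rps4x was lower, at -0.45 ± 0.10, and the probe set of Rps9 without a suffix gave -0.04. The count of 17 was 5 without mutant array 1, 8 without mutant array 2, 10 without mutant array 3, 8 without ventricle array 1, 9 without ventricle array 2 and 5 without ventricle array 3. In these fits 13.4% to 14.6% of all genes were higher, a larger share than that of the 51 genes where 5 were left.

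**Figure D4:**
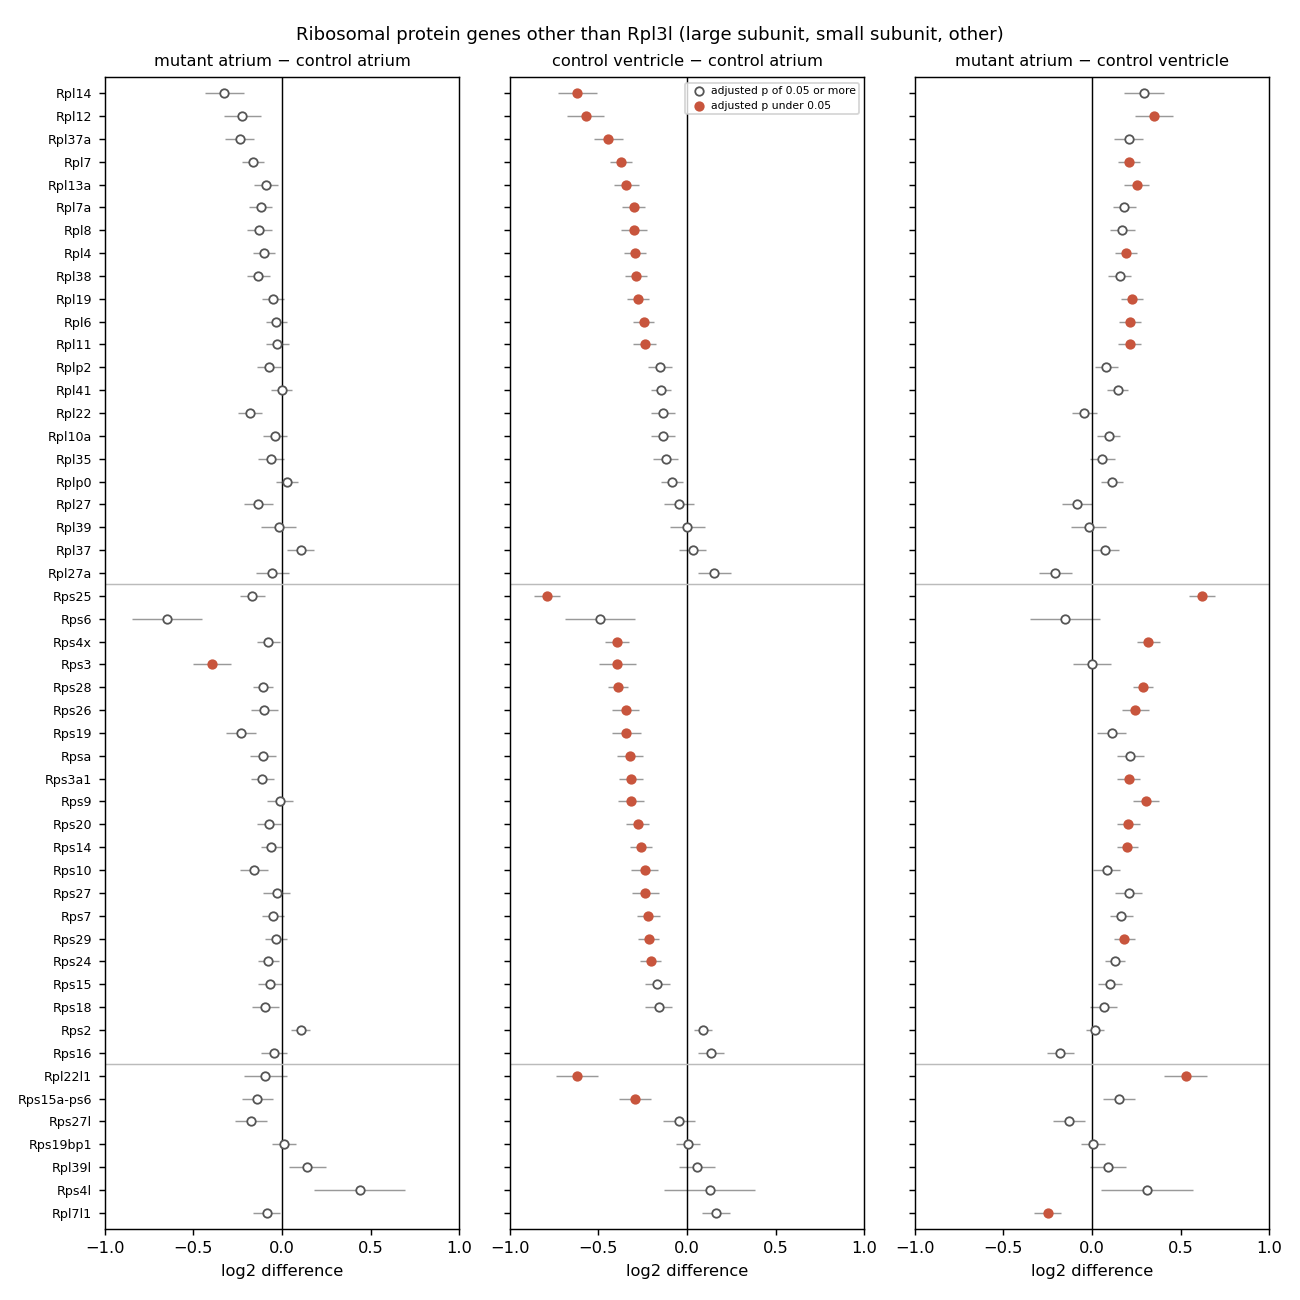
Log2 difference ± SE of the 50 ribosomal protein genes other than Rpl3l in the 3 comparisons, with genes of the large subunit on top, then the small subunit, then paralogs and other symbols, ordered by the middle panel. Filled points passed an adjusted p of 0.05 in limma: 1 in the first panel, 30 in the second and 18 in the third.

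Within each of the atrial groups, most of these genes had their highest value on the same array. In the control atria 46 of the 51 genes had their highest value on array 1, and in the mutant atria 43 of 51 did, with median deviations of 0.075 and 0.085 from the group mean. In the ventricles the highest values were spread over the arrays, with 16, 27 and 8 genes. The median SD was 0.082 in control atria, 0.083 in mutant atria and 0.040 in ventricles, and the largest was 0.50 for Rps4l in ventricles. The share of all genes with their highest value on array 1 was not counted. Array 1 of the control atria also had the highest hepatocyte sum, 20870. In the mutant atria array 2 had the highest, 1180 against 1150 on array 1. The Gapdh difference between 3′ and 5′ probe sets was largest on array 1 in both atria, at 0.36 in controls and 0.30 in mutants. That of the actin gene Actb was largest there in the control atria only. The part of either in the ribosomal protein values was not tested.

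Other genes of translation were read beside them from lists written from textbook knowledge. Fau, whose product is a fusion of a ubiquitin-like protein with a small subunit protein, was lower in the ventricle than in the control atrium by a log2 difference of -0.45 ± 0.07 (limma adjusted p = 0.000554). Of 38 measured of 44 translation factors, 10 were higher and 12 lower in the ventricle (26.3% and 31.6%), near the 29.2% and 23.6% of all genes. Eef1a1, the elongation factor that delivers tRNA and whose mRNA also carries the pyrimidine motif, had 14.39, 14.38 and 14.38 in control atria, 14.17, 14.12 and 14.14 in mutant atria and 13.34, 13.36 and 13.30 in ventricles. Its groups did not overlap, and the ventricle differed from the control atrium by -1.05 ± 0.05 (adjusted p = 6.10e-07) and the mutant atrium by -0.24 ± 0.05 (adjusted p = 0.0145).

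Pabpc1, the binding protein of poly(A) tails, was lower in the ventricle by a log2 difference of -0.61 ± 0.06 (adjusted p = 4.46e-05). Eif4e, which binds the cap, was higher there by 1.23 ± 0.06 (adjusted p = 7.28e-07) and higher in the mutant atrium by 0.44 ± 0.06 (adjusted p = 0.0021). In the mutant atria 3 translation factors were higher than in control atria and 3 lower (7.89% each), near the 7.76% and 9.79% of all genes. Eif5, which triggers GTP hydrolysis at the start codon, differed the most, by -0.69 ± 0.06 (adjusted p = 0.000155).

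Of 42 measured of 43 genes of ribosome assembly, 12 were higher and 5 lower in the ventricle than in the control atrium (28.6% and 11.9%, beside 29.2% and 23.6% of all genes), so the count of rises was that of the background. Nob1, an endonuclease of small subunit maturation, was higher by 0.51 ± 0.06 (adjusted p = 0.000146) and Wdr12, of large subunit maturation, by 0.50 ± 0.08 (adjusted p = 0.000952). Between mutant and control atria 1 of the 42 passed the test (2.38% lower, beside 9.79% of all genes). This was Tsr1, a factor of small subunit assembly, at -0.31 ± 0.05 (adjusted p = 0.00505). Against the ventricle, 2 of the 42 were higher and 10 lower in the mutant atrium (4.76% and 23.8%, beside 16% and 16.7% of all genes).

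Among 20 measured of 22 regulators of ribosomal protein expression, 3 were higher and 3 lower in the ventricle than in the control atrium, 15% each, below the shares of all genes. Larp4, which binds and stabilises mRNA tails, was higher by 0.47 ± 0.08 (adjusted p = 0.000829) and Max, the partner of Myc, was lower, at -0.60 ± 0.11 (adjusted p = 0.00137). In the mutant atria 0 were higher than in control atria and 3 lower (15%), beside 7.76% and 9.79% of all genes. The 3 were Eif4ebp2, an inhibitor of Eif4e, at -0.30 ± 0.07, Gabpb1, a subunit of the ETS factor GABP, at -0.38 ± 0.09, and Tsc1, an inhibitor of mTOR signalling, at -0.33 ± 0.08. Their adjusted p lay between 0.0139 and 0.0235.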

How the data were processed

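RNA of 9 heart samples, 3 per group, was hybridised after 3′ IVT Express labelling. The deposited intensity values were summarised by the authors with RMA, per the submitters' processing notes; its version and the software are not given in the sources used here, and the linear scale was read from the range of the values. Their log2 was taken with no further normalisation. Of 45101 probe sets, 64 controls, 932 naming several genes and 9160 without a name were left out. For each of 18193 genes the probe set with the highest mean was used. Symbols came from the platform annotation. A total of 110 probe sets name a member with other genes, and 27 subunit proteins stand only on such probe sets; 7 more have no named one.

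All arrays entered 1 limma fit (version 3.58.1, R 4.3.3; lmFit and eBayes, 6 residual and 3.48 prior degrees of freedom), 2-sided, and p-values were adjusted over all genes by the Benjamini-Hochberg method. Paralog pairs were compared by exact permutation. The planned values of Rpl3 and of Rpl3l against Rpl3 could not be computed, since no probe set names Rpl3 alone. The procedure was tested on simulated data. Genes named in the text are Rpl3l, paralogs with their parents, stalk proteins and Rpsa, up to 8 rises and 8 falls per comparison among called members without overlap, up to 3 of each other list by p, Nr2f2 and Alb; any other is marked as named after its values were seen. The members and lists were chosen with earlier results of these data known. Alternatives were a replicate block, a trend with robust variance, dropping the dimmest 40% of genes, median centring, quantile normalisation, other probe set rules, fits of 2 groups, array weights, covariates, an adjusted p of 0.01 and leaving out each array. The labels do not pair same-numbered arrays, and the model has no block. Sequences were read from RefSeq tables. Figures were drawn with matplotlib 3.10.9.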

Additional observations from a re-analysis of the deposited data

How the results depend on the processing

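Counts are of the 51 genes unless stated. With an adjusted p of 0.01, 0 were lower between mutant and control atria, beside 4.08% of all genes. Between mutant atria and ventricles 4 were then higher and 1 lower, beside 10.8% and 9.23% of all genes. Over all genes, same-numbered arrays of different groups did not deviate together (correlations -0.10 to 0.13, with 0.125 for array 1 of both atria), although most of the 51 genes were highest on array 1 of both. The replicate block gave 30 lower in the ventricle against control atria, beside 22.8% of all genes. It gave 15 higher and 1 lower in mutant atria against ventricles, beside 15.2% and 15.4% of all genes. The intensity trend gave 5 lower between mutant and control atria (10.3% of all genes) and 2 higher in the ventricle against control atria (29.1% of all genes). Without the dimmest 40% of genes 2 were lower between the atria, beside 16.9% of all genes kept. With quantile normalisation 3 were lower between the atria, beside 7.98% of all genes, and 3 higher in the ventricle against control atria, beside 26.9%. Median centring gave 5 higher and 13 lower in the ventricle against control atria, and 5 higher and 4 lower in mutant atria against ventricles. The mean of all probe sets gave 2 higher in the ventricle against control atria, beside 30.6% of all genes. Probe sets without a suffix gave 10 lower of 28 in the ventricle against control atria, beside 22.4% of all genes. They gave 3 higher in mutant atria against ventricles, beside 14.6%. Adding shared probe sets gave 54 lower of 77 in the ventricle against control atria, beside 23.7%. Fits of only 2 groups gave 2 lower between the atria and 1 between mutant atria and ventricles, beside 8.77% and 15.9% of all genes. Array weights gave 6 lower between the atria, beside 13.5% of all genes. The hepatocyte covariate gave 0 higher and 0 lower between the atria and 0 lower in the ventricle, and the difference of Rpl3l between the atria became 0.73 (limma adjusted p = 0.448). The Y-linked covariate gave 3 lower between the atria and 1 between mutant atria and ventricles, beside 10.2% and 11.6% of all genes. Leaving out 1 array at a time gave 26 to 30 lower and 1 to 2 higher in the ventricle against control atria, 1 to 1 higher and 0 to 4 lower between the atria, and 5 to 18 higher and 1 to 2 lower between mutant atria and ventricles. For Rpl3l these ranges were 3.71 to 3.77, 0.73 to 0.98 and -3.02 to -2.78. Over all genes, the same fits called 20.3% to 23.5% lower in the ventricle against control atria. They called 5.78% to 9.48% lower between the atria and 13.4% to 15.9% higher in mutant atria against ventricles. The direction turned for Rps4x with the mean of its probe sets (0.11 between ventricle and control atrium, -0.065 between mutant atrium and ventricle), for Rps3 between the atria (0.0062) and Rps9 between mutant atrium and ventricle (-0.042) with probe sets without a suffix, and for Rps27 between ventricle and control atrium with the hepatocyte covariate (0.0165). Of 63 named gene results, 25 were called in the reported fit. Over 1230 repeats of the 63, 1122 stayed on their side of the threshold, 64 lost the call and 39 gained one. The other 5 turned direction with a call in at least 1 of the fits compared. Turns between fits without a call are among the 1122, such as Rpl22 between ventricle and control atrium (-0.14, and 0.04 with the hepatocyte covariate). The causes were not tested. The values of Rpl3 and of Rpl3l against Rpl3 were not run. With 3 arrays per group, the number of arrays limits the precision, and bright probe sets near the top of the scale may understate differences.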
